A study of Mus musculus with 4 samples.

Results

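The testis-specific serine kinases form a small family of protein kinases that are made almost only in the testis. The genes described here were taken by symbol from the deposited expression table, namely the kinases Tssk1, Tssk2, Tssk3, Tssk4 and Tssk6 and the kinase substrate Tsks. All 6 were found among the 24426 genes of the table, and all 6 reached 0.5 FPKM in at least 1 library, as did 16652 genes in all. FPKM divides the fragments of a gene by its length and by a measure of library size, so levels can be set side by side between genes.

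The kinases of this family belong to the same large group as the AMP-activated and calcium/calmodulin-dependent kinases. In the mouse they act mainly after meiosis, when round spermatids condense their chromatin and build the tail. Tssk1 and Tssk2 together bind and phosphorylate Tsks, a scaffold protein of the spermatid, and males that lack both kinases are infertile. Tssk6 is needed for normal chromatin condensation in spermatids, Tssk4 phosphorylates the tail protein Odf2, and males without Tssk3 are infertile.

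RNA was sequenced from 4 libraries of male C57BL/6 germ cells, with 1 library per stage, each separated by size in a gravity gradient after Sertoli cells had been left to attach. Spermatogonia (SG, titled type A) came from 30 mice of 7 days, while 3 kinds of spermatocyte came from 5 mice of 17 days, namely those at preleptotene (PlpSC), at leptotene/zygotene (L/ZSC) and at pachytene (PaSC). No treatment or mutation was involved, and the animals were pooled. Since each stage had a single library, replicate error is unknown, and levels, plain ratios and counts are given without p-values.

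The stage labels were compared with marker genes first. The 10 pachytene markers, among them the germ cell lactate dehydrogenase Ldhc, summed to 5789, 753, 8850 and 9361 FPKM in the columns labelled SG, PlpSC, L/ZSC and PaSC, the order in which 4 values are given throughout. Of 10 spermatogonial markers, 9 were highest in the PlpSC-labelled library and 0 in the SG-labelled one. The 9 Sertoli markers were all highest in the SG-labelled library. Its lncRNA values were also proportional to those that the publication lists for PaSC. The lncRNA values under PlpSC equalled those listed for PlpSC, while those under L/ZSC and PaSC were proportional to no listed stage, so the label of the library in which the kinases were highest was not matched either. The authors, for their part, assessed the purity of each fraction by cell diameter, morphology and marker levels. Because the columns and labels did not all match, each library is named by the label it carries, and a step from the SG-labelled library is not read as a step from spermatogonia. The summed FPKM ran from 858436 to 2571630 between libraries, and the 10 highest genes held 23.8% to 68.1% of these sums.

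The Tssk genes lie on several chromosomes, by the GENCODE M21 models on GRCm38 (mm10). Tssk1 (chromosome 16, 17894223 to 17897922) and Tssk2 (chromosome 16, 17898637 to 17900024) are neighbours on the plus strand, each with a single exon. The RefSeq model of Tssk1, the annotation in which FPKM was computed, ends earlier, at 17895653, and does not overlap Dgcr2 on the opposite strand, whose GENCODE span covers the whole Tssk1 model. Tssk6 is also a gene of 1 exon, on the plus strand of chromosome 8 at 69902184 to 69903518. Tssk3 lies on the minus strand of chromosome 4 at 129489014 to 129491022 with 2 exons. Tssk4 is on chromosome 14 at 55650184 to 55652539 with 4 exons, and Tsks on chromosome 7 at 44943204 to 44958035 with 11, both on the plus strand.

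Because Tssk1 and Tssk2 sit side by side, the bases just before their start sites are shown, with those of Tssk6 for comparison. The stretches are the 90 bases before the RefSeq start on GRCm38.p6, read 5′ to 3′ on the strand of the gene. Capitals mark TGACTTCA or its reverse complement in Tssk1 and Tssk2, and TGACG in Tssk6.

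Tssk1 (chr16:17894113-17894202, plus strand): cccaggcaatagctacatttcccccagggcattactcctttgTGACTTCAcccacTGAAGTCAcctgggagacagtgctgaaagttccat

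Tssk2 (chr16:17898547-17898636, plus strand): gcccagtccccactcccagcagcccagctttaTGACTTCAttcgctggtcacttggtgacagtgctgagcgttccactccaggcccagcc

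Tssk6 (chr8:69902094-69902183, plus strand): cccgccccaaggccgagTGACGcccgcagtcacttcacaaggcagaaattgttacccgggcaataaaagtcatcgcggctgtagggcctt

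In the Tssk1 and Tssk2 promoters, 41 of 49 aligned bases were identical in the best local alignment of the 250 bases upstream. The alignment score was 26 for this pair and at most 14 for any of the other pairs of members. TGACTTCA, chosen after these promoters had been read, occurs on either strand in 1.52% of 32851 mouse promoters (250 bases before the start and 50 after it), and in those of Tssk1 and Tssk2 among the 6 members. The cAMP response element TGACGTCA was in none of the 6 promoters and in 1.79% of all. Its shorter form TGACG, which the full element contains, was in that of Tssk6 alone and in 20.8% of all promoters. CCAAT was in the promoters of Tssk3 and Tssk4 and in 37.4% of all. CAGTTG was in no member and in 13.7% of all. GTTGCC was in no member and in 12.5% of all, and the TATA box TATAAA in no member and in 13.6%. Both strands were read for each motif, in 1 window per gene. For Tssk3, Tssk4 and Tsks this window lies within the RefSeq span of the gene, and the outer start of that span was not read. These matches describe letters in the windows and say nothing about binding.

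All 6 genes had their highest level in the PaSC-labelled library, where 27.4% of all tested genes were highest. There the 6 genes ranged from 81.0 FPKM for Tssk3 to 221 FPKM for Tssk1, which placed each above 89.6% or more of the tested genes. In the other libraries they were low, with medians of 1.69 FPKM in the SG-labelled library, 1.33 in the PlpSC-labelled library and 7.39 in the L/ZSC-labelled library against 156 in the PaSC-labelled library. The PaSC-labelled library held between 89.1% (Tssk1) and 95.6% (Tssk2) of the FPKM that each gene summed to over the 4 libraries. Each gene was over 10 times its next highest library there, a limit chosen after the levels were seen, and 6.37% of tested genes passed it.

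**Figure D1:**
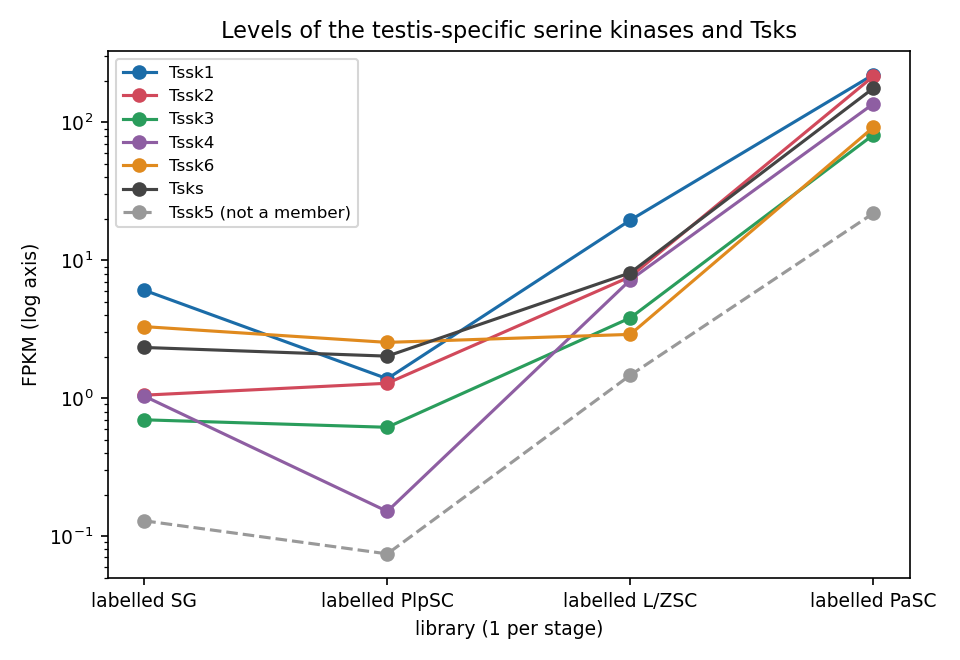
FPKM on a log axis (y) of the 6 genes, and of Tssk5 as a dashed line, in the 4 libraries (x), each point being 1 library without replicates. All lines end at their highest point in the PaSC-labelled library, at 81.0 to 221 FPKM for the 6 genes, and the line of Tssk6 stays between 2.54 and 3.30 FPKM before that.

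Tssk1 stood at 6.06, 1.38, 19.5 and 221 FPKM in the libraries labelled SG, PlpSC, L/ZSC and PaSC. It was the highest of the 6 genes in the SG-labelled library, the L/ZSC-labelled library and the PaSC-labelled library. Its level in the PaSC-labelled library was 11.3 times that in the L/ZSC-labelled library, the smallest such ratio of the 6.

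Tssk2, the neighbour and closest relative of Tssk1, was at 1.05, 1.28, 7.59 and 215 FPKM in the same order of libraries. It was close to Tssk1 in the PaSC-labelled library and in the PlpSC-labelled library, and below it in the other libraries. The ratio of the PaSC-labelled library to the L/ZSC-labelled library was 28.3. Reads can be shared between these genes, since the longest identical stretch of their transcripts has 113 bases and 9.34% of the 50-base stretches of Tssk2 also occur in Tssk1. How the authors' counting divided such reads is not given in the sources used here.

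Tsks, the substrate and scaffold of Tssk1 and Tssk2, was at 2.33, 2.02, 8.10 and 176 FPKM. Its level in the PaSC-labelled library lay between those of Tssk2 and Tssk4, and its ratio to the L/ZSC-labelled library was 21.8.

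Tssk3 was the lowest of the 6 in the SG-labelled library and the PaSC-labelled library. Its levels were 0.697, 0.615, 3.82 and 81.0 FPKM, and the ratio of PaSC to L/ZSC, its last ratio, was 21.2. The RefSeq model of Tssk3 overlaps Fam229a on the opposite strand by 541 bases, those of Tssk4 and Tm9sf1 overlap by 156 and those of Tsks and Ap2a1 by 19, and reads shared across strands were not tested. Tssk4 was at 1.03 FPKM in the SG-labelled library and at 0.151 in the PlpSC-labelled library, the lowest value of any member. It reached 7.19 FPKM in the L/ZSC-labelled library and 136 in the PaSC-labelled library, a last ratio of 18.9. The number of reads behind such low values is unknown, because no counts were analysed.

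Tssk6, the chromatin condensation kinase, had a different course before the PaSC-labelled library. It was at 3.30 FPKM in the SG-labelled library, 2.54 in the PlpSC-labelled library and 2.90 in the L/ZSC-labelled library, so that its values in these 3 libraries lay within a ratio of 1.30. In the PaSC-labelled library it stood at 91.8 FPKM, 31.7 times the L/ZSC-labelled library and the largest last ratio of the 6. The first 375 bases of Tssk6 overlap Ndufa13, a subunit gene of respiratory complex I on the opposite strand. Ndufa13 was at 89.3, 85.8, 93.0 and 84.9 FPKM. Whether the authors counted by strand is not given in the sources used here, and the part of reads from Ndufa13 in the low Tssk6 values was not tested.

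From the L/ZSC-labelled library to the PaSC-labelled library, all 6 genes were more than 1.5 times higher, the fold that the study used for its calls, and none was lower. Of all 16652 tested genes, 24.9% were higher and 24.6% lower at this step. With the FPKM sums of the libraries made equal these shares were 35.4% and 11.3%, and with libraries scaled by median ratios 28.7% and 17.2%, and all 6 genes were higher under both. The ratios of the 6 genes ran from 11.3 to 31.7 with a median of 21.5. The median of the difference in log2(FPKM + 0.5), a scale that understates the change of low genes, was 4.30 for the 6 genes and -0.10 for all tested genes. Among 16374 tested genes above 0 in the L/ZSC-labelled library, 1.67% had a larger ratio than Tssk6 and 6.38% a larger ratio than Tssk1.

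From the PlpSC-labelled library to the L/ZSC-labelled library, 5 of the 6 genes were higher and none was lower, where 30.7% of tested genes were higher and 45.4% lower. Tssk4 had the largest ratio, 47.6, over its low value in the PlpSC-labelled library. With 1 FPKM added to each value Tssk1 came first, at 3.11 on the log2 scale against 2.83 for Tssk4. In plain ratios Tssk1 followed at 14.1, Tssk3 at 6.21, Tssk2 at 5.92 and Tsks at 4.02, while Tssk6 had a ratio of 1.14. The median difference in log2(FPKM + 0.5) was 2.07 for the 6 genes and -0.29 for all tested genes. When the FPKM sums of the libraries were made equal, the ratio of Tssk6 passed the fold as well, at 1.39 on the log2 scale, and 53.7% of tested genes were then higher and 22.3% lower.

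From the SG-labelled library to the PlpSC-labelled library, Tssk1 and Tssk4 were lower and no member was higher, where 30.1% of tested genes were higher and 30.9% lower. Tssk1 was 4.38 times and Tssk4 6.85 times higher in the SG-labelled library than in the PlpSC-labelled library. With 1 FPKM added to each value the log2 ratios were -1.57 for Tssk1 and -0.82 for Tssk4, so that their order turned. The other members had ratios of the PlpSC-labelled library to the SG-labelled library between 0.769 for Tssk6 and 1.22 for Tssk2. When the sums were made equal, all 6 genes were lower in the PlpSC-labelled library, but so were 71.5% of tested genes, with 7.81% higher, and the median log2 difference of all tested genes moved to -1.03 from 0. From the SG-labelled library to the PaSC-labelled library, all 6 genes were higher, by 27.8 times for Tssk6 to 205 times for Tssk2, where 24.7% of tested genes were higher and 39.9% lower. With equal sums the shares of tested genes were 31.2% higher and 32.5% lower, and with median ratios 33.7% and 29.5%. Neither label of this comparison was matched by the lncRNA values.

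**Figure D2:**
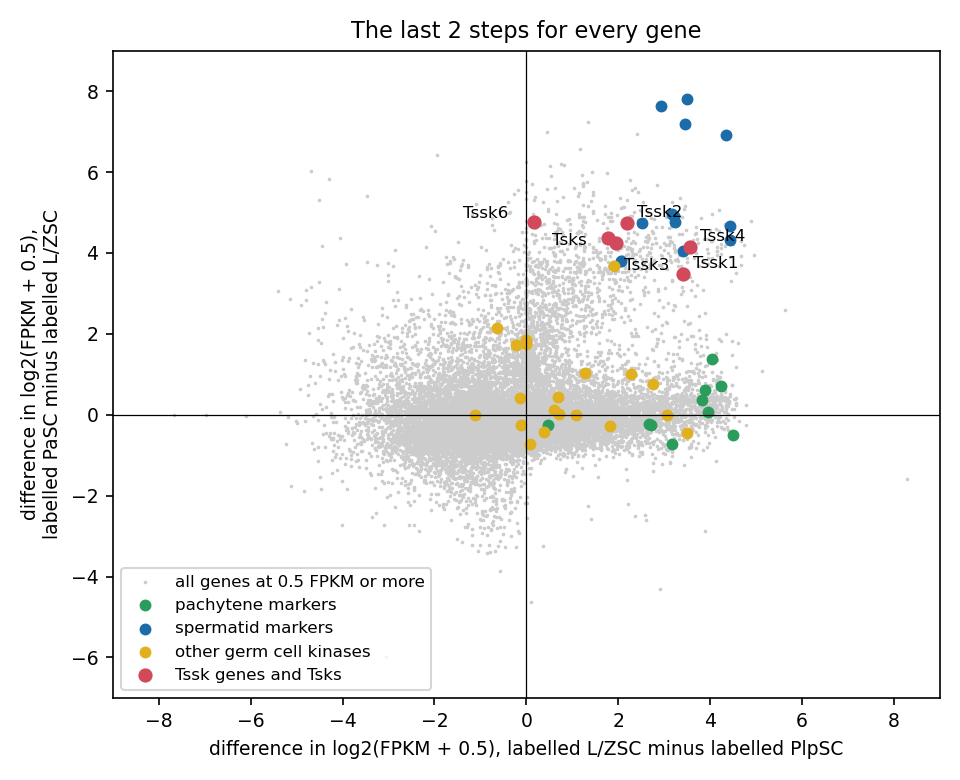
Difference in log2(FPKM + 0.5) from the PlpSC-labelled library to the L/ZSC-labelled library (x) and from the L/ZSC-labelled library to the PaSC-labelled library (y), with 1 point per gene; grey points are all 16652 tested genes (31 lie outside the axes), and colours mark the 6 genes, spermatid markers, pachytene markers and other germ cell kinases. The 6 genes lie at 3.47 to 4.76 on the y axis, the pachytene markers lie nearer to 0 there, Tssk6 lies near 0 on the x axis, and both axes share the L/ZSC library.

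Markers of spermatids moved with the 6 genes. All 12 spermatid markers were highest in the PaSC-labelled library, and their summed FPKM was 12.9, 8.04, 158 and 13419. The ratios of the PaSC-labelled library to the L/ZSC-labelled library ran from 15.7 to 232 among these markers, with a median of 32.6. Prm1, a protamine that packs sperm DNA, had the largest of them. The chromatin packing genes Prm1, Prm2, Tnp1 and Tnp2 had ratios of 126 to 232, above all 6 genes. The other 8 markers, among them the acrosome genes Izumo1 (15.7) and Acrv1 (17.5), ran from 15.7 to 34.4, and the ratios of the 6 genes were 11.3 to 31.7.

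The 10 pachytene markers did not share the last step, with a median difference in log2(FPKM + 0.5) of -0.08, 3 higher and 1 lower. Of all tested genes, 24.9% were higher and 24.6% lower, with a median of -0.10. Ldhc was at 5468 FPKM in the L/ZSC-labelled library and 5721 in the PaSC-labelled library. Spermatids and pachytene cells that share a library cannot be told apart in bulk RNA, nor can more cells of a type from more RNA per cell, and the part of spermatids in the levels of the 6 genes was not tested. By the methods, the PaSC fraction was sorted by size from mice of 17 days, an age before round spermatids are usually present in number. The lncRNA values of the column with this label were proportional to no listed stage, however. Which cells gave its spermatid markers was not tested.

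Other cell types differed between these libraries too. All 6 Leydig cell markers were higher in the PaSC-labelled library than in the L/ZSC-labelled library, with a summed FPKM of 33.7, 717, 49.3 and 2130 in the 4 libraries. Their ratios at this step ran from 3.47 for Hsd3b1 to 58.0 for Insl3, with a median of 14.5. This range takes in the ratios of the 6 genes, 11.3 to 31.7. Insl3 alone stood at 1834 FPKM in the PaSC-labelled library. In the PlpSC-labelled library, where the 6 genes were at their lowest sum of 7.98 FPKM, Insl3 alone held 632 FPKM of the Leydig sum. There Hsd3b1 was at 48.0, Cyp11a1 at 17.3, Star at 7.60, Lhcgr at 7.17 and Cyp17a1 at 4.48 FPKM. Of the Leydig markers, 2 (Hsd3b1 and Lhcgr) were highest in this library and 4 in the PaSC-labelled one. The 9 Sertoli markers summed to 1782, 927, 473 and 110 FPKM, with the lowest sum where the 6 genes had their highest. Early meiosis markers summed to 514, 1432, 468 and 351 FPKM and spermatogonial markers to 219, 270.4, 143 and 69.9 FPKM. The part of any of these cells in the levels of the 6 genes was not tested. Macrophage markers (266 FPKM) and peritubular and fibroblast markers (794 FPKM) were highest in the PlpSC-labelled library.

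**Figure D3:**
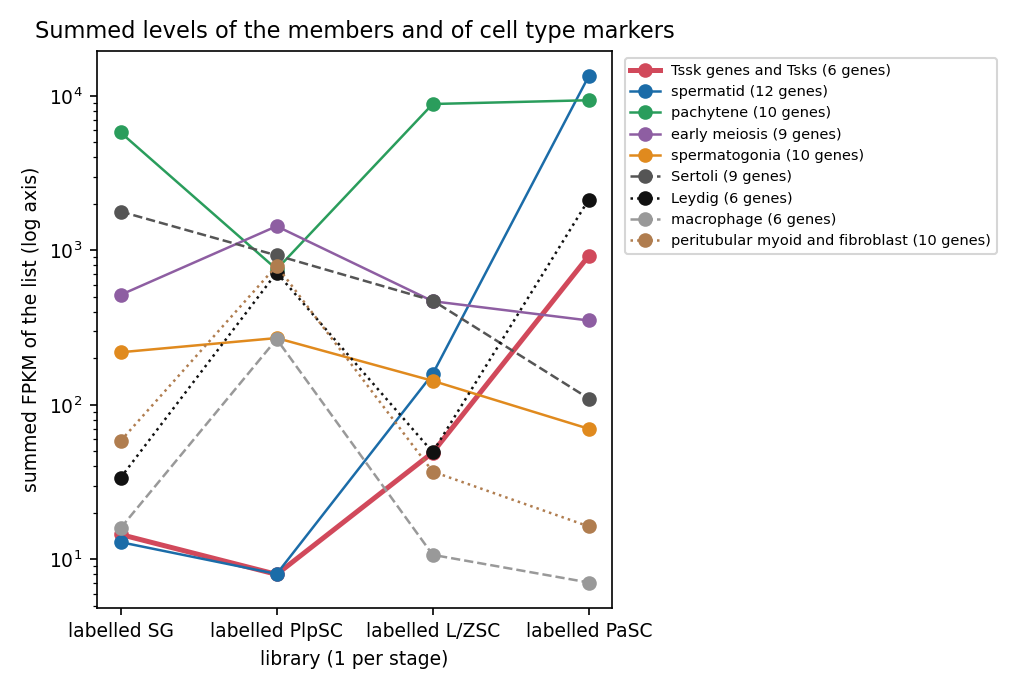
Summed FPKM on a log axis (y) of the 6 genes and of 8 lists of cell type markers in the 4 libraries (x), with 1 library per point. The 6 genes sum to 14.5, 7.98, 49.1 and 921 FPKM, and the spermatid markers to 12.9, 8.04, 158 and 13419 FPKM. Both put the libraries in the same order, but the marker sum rises more at the last step. Among these markers, Prm1, Prm2, Tnp1 and Tnp2 have the largest ratios there.

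Partners and substrates of the family were described next, as a list of 9 genes that also holds the kinase Tssk5. The family's remaining kinase in the table, Tssk5, followed the same course at a lower level, with 0.129, 0.0743, 1.47 and 21.9 FPKM and a last ratio of 14.9. Tsacc, a co-chaperone that activates Tssk6 together with HSP90, did not. It was at 178, 36.6, 258 and 313 FPKM, so its last ratio was 1.21 where that of Tssk6 was 31.7. The tail protein genes Spag16 and Odf2, whose products are substrates of Tssk2 and Tssk4, were at 173 and 760 FPKM in the L/ZSC-labelled library and at 217 and 1263 in the PaSC-labelled library.

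The chaperone gene Hsp90aa1 stayed between 906 and 1469 FPKM in all 4 libraries. The phosphatase subunit gene Ppp1cc, which has a testis-specific isoform, was at 572 FPKM in the L/ZSC-labelled library and 549 in the PaSC-labelled library. Its relative Ppp1ca was at 163 FPKM in the PlpSC-labelled library and 12.6 in the PaSC-labelled library. In all, 3 of the 9 listed genes were higher at the last step (Tssk5, Pdpk1 and Odf2) and 2 lower (Hsp90ab1 and Ppp1ca). Of all tested genes, 24.9% were higher and 24.6% lower. The ratios of Pdpk1 and Odf2 were 1.97 and 1.66. The list had a median difference in log2(FPKM + 0.5) of 0.28.

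Among 20 other kinases of germ cells, 8 were higher and 1, Stk31, was lower at the last step, beside 24.9% and 24.6% of all tested genes, with a median difference of 0.27. Hipk4, a kinase of spermatid head shaping, was the only one of them at 5 FPKM or more with a ratio above 10, rising from 4.84 to 67.5 FPKM. Camk4, a calcium/calmodulin-dependent kinase of spermatids, had a ratio of 21.9 at low levels, from 0.0970 to 2.13 FPKM, and Mos, the meiotic kinase of oocytes, one of 11.8, from 0.138 to 1.62 FPKM. Smok2a and Smok2b, sperm motility kinases, were listed at 0 in 3 libraries and at 1.18 and 1.29 FPKM in the PaSC-labelled library. The spermatocyte kinases Nek2 and Aurkc were at 288 and 45.2 FPKM in the L/ZSC-labelled library and at 239 and 32.9 in the PaSC-labelled library, and Stk33 at 171 and 170.5. Stk36, Mak and Plk1 were also higher, with ratios of 1.72 to 2.08.

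Of 15 kinases of the same large group that are used in many tissues, 2 were higher and 5 lower at the last step (Mark1, Mark2, Mark4, Nuak2 and Melk), beside the same 24.9% and 24.6% of all tested genes, with a median difference of -0.06. Stk11, the upstream kinase of AMP-activated kinase, was at 76.3 FPKM in the L/ZSC-labelled library and 79.9 in the PaSC-labelled library, and the polarity kinase Mark2 at 53.3 and 29.9 FPKM. Brsk2 and Prkaa2 were the ones that were higher, at 10.7 and 0.272 FPKM in the PaSC-labelled library.

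The course of the 6 genes over the libraries was compared by a distance, the root of the summed squared differences in log2(FPKM + 0.5) after the mean of each gene was taken off. Tssk3 and Tsks were the closest pair at 0.18, and Tssk4 and Tssk6 the farthest at 2.75. The distances of Tssk6 from the other 5 genes, 1.52 to 2.75, included the 3 largest of all 15. Tssk1 and Tssk2 were 1.72 apart, farther than Tssk2 and Tssk3 at 0.75 or Tssk1 and Tssk4 at 0.99. The pairs were compared with 0.5 FPKM added only, which weighs on the low values of the members. Whether the order of the pairs holds with another constant was not tested.

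Protein identity was compared over the 10 pairs of the 5 kinases, from translated GENCODE transcripts. Tssk1 (365 residues) and Tssk2 (358) were identical at 74.9% of 351 aligned residues. The other pairs ran from 41.6% for Tssk2 and Tssk4 to 134 of 268 aligned residues for Tssk2 and Tssk3. Tssk3 (268 residues) and Tssk6 (273) were the shortest, and 48.9% identical. The most alike pair of proteins was thus not the most alike pair in expression, as measured with 0.5 FPKM added. No test was made over pairs that share genes.

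**Figure D4:**
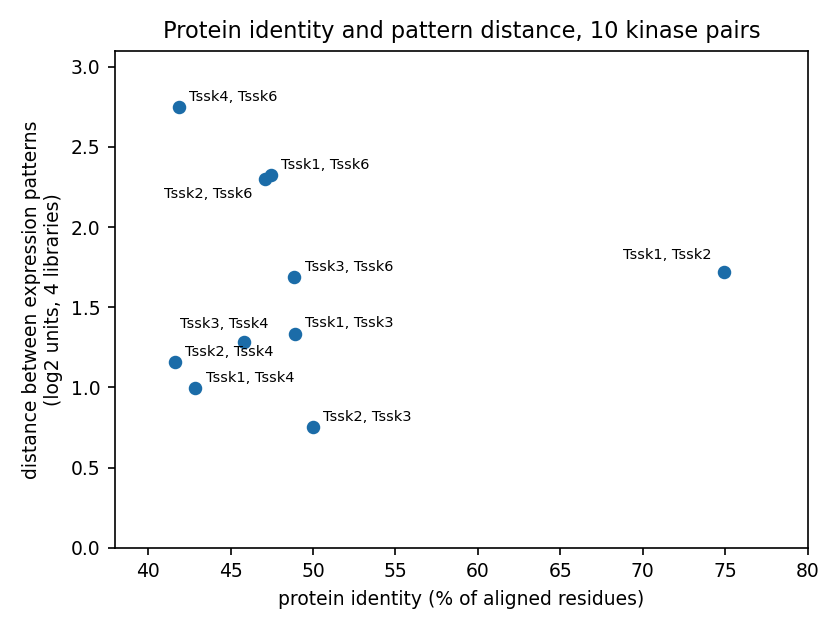
Distance between expression patterns over the 4 libraries (y, log2 units, 0.5 FPKM added) against protein identity (x, percent of aligned residues) for the 10 pairs of 5 kinases. Tssk1 and Tssk2 lie alone at 74.9% identity with a distance of 1.72, and the 4 pairs with Tssk6 lie at 1.69 to 2.75.

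The genes most like each member were sought among those with a highest level of 5 FPKM or more. The 5 nearest to Tsks were Tbata, Fam205c, Adam6a, Nkx2-6 and Tex29, at distances of 0.05 to 0.18. For Tssk3 they were Fam71d, Nkx2-6, 1700113H08Rik, BC048562 and 4930505A04Rik, at 0.07 to 0.16, so that Nkx2-6 was near both. Tssk2 was nearest to 1700022A21Rik, 1700031P21Rik, 1700006E09Rik, 4933402J07Rik and Spata25, at 0.08 to 0.29. Tssk4 was nearest to Fam170b, Spata21, the sperm actin-capping gene Capza3, Lyzl6 and 1700007K09Rik, at 0.17 to 0.27. Tssk1 was nearest to Tescl, the transcription factor gene Creb3l4, BC061237, Trim17 and 1700025B11Rik, at 0.32 to 0.47, and Creb3l4 was at 7.64, 1.84, 20.5 and 208 FPKM. Those of Tssk6 were 1700084D21Rik, Hmgb1-rs17, 1700065J11Rik, 1700096J18Rik and Gm136, at 0.26 to 0.37, all of them under 0.5 FPKM outside the PaSC-labelled library. The nearest genes changed with the constant added before the log. With a pseudocount of 0.1, between 0 and 2 of the 5 nearest genes of each member were the same, and with 1 between 0 and 5. Without the SG-labelled library, between 0 and 3 of 5 were the same.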

How the data were processed

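The authors removed ribosomal RNA from total RNA, made directional libraries, mapped them to mm10 (TopHat, default settings) and computed FPKM of RefSeq genes with Cuffdiff. For both tools the version, and for Cuffdiff the scaling, is not given in the sources used here. As deposited, the FPKM table has 24426 genes and 1 column per stage. Columns were matched to samples by name, and no per-sample column was left unused. The table holds no counts, so depth per library is unknown and gives no interval.

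Software was numpy 2.4.6, pandas 2.3.3, matplotlib 3.10.9 and, for alignments, Biopython 1.88 under Python 3.11.15. Genes below 0.5 FPKM in every library were dropped, and a plain ratio over 1.5 was called, both limits from the study's methods. The calling step was run on simulated data with little noise and planted changes well past the fold. This checks the code and says nothing about replicate or counting error. Text names followed a rule: the members, the family lists, and the 5 nearest genes of each member by distance. The members and lists were chosen with earlier results of these data known. Proteins were aligned globally (BLOSUM62), and upstream bases locally. Coding regions and coordinates came from GENCODE M21 on GRCm38, and promoters from RefSeq on GRCm38.p6, where all 6 members matched. Alternatives were pseudocounts of 0.1, 0.5 and 1, other filters, a fold of 2 and 3 scalings.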

Additional observations from a re-analysis of the deposited data

How the results depend on the processing

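Of 10 alternatives, 6 act on the ratios themselves (3 added constants and 3 scalings), which gave 144 ratios of single members over the 4 comparisons. No called ratio changed direction, and 118 of the 144 stayed within 1.5-fold of the reported value. From L/ZSC to PaSC, the log2 ratio of any member lay between 3.44 and 5.37, and all 6 genes were called under each of the 10 alternatives. When the FPKM sums of the libraries were made equal, 6 members in place of 2 were lower in the PlpSC-labelled library than in the SG-labelled one. The 10 highest genes held 68.1% of the PlpSC sum. With the 10 highest genes of every library left out of all sums, 3 members were lower, while scaling by median ratios gave 2. The other counts of called members were within 1.5 times those reported. The ratio of Tssk4 from PlpSC to L/ZSC, over 0.151 FPKM, went from 5.57 on the log2 scale to 2.83 with 1 FPKM added. The single library per stage and the lack of read counts leave replicate and counting error unknown for every value, and no replicate could be left out.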

Other observations

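Of 12 other genes within 10 kb of a member that had a value, 4 were more than 1.5 times higher in the PaSC-labelled library than in the L/ZSC-labelled library and 1 was lower, where 24.9% of all tested genes were higher and 24.6% lower. The ratios of 11 of them lay between 0.543 and 2.20. The exception was Fam229a, beside Tssk3 on the opposite strand, which was at 2.48, 2.14, 22.3 and 422 FPKM in the libraries labelled SG, PlpSC, L/ZSC and PaSC, a last ratio of 19.0 beside 21.2 for Tssk3. RefSeq spans of these genes overlap by 541 bases and the GENCODE models by 0, and whether reads were shared was not tested. Dgcr2 and Ess2 (listed as Dgcr14), on either side of Tssk1 and Tssk2, were at 16.1 and 14.6 FPKM in the L/ZSC-labelled library and at 35.5 and 17.6 FPKM in the PaSC-labelled library. The GENCODE model of Tssk1, all 3700 bases of it, lies within that of Dgcr2 on the opposite strand, while the RefSeq models do not overlap, and reads shared between them were not tested. Fam229a was named after its values had been seen.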
